A study of Rattus norvegicus with 8 samples.

Results

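The Bcl2 family of death and survival genes was followed in rat hippocampal neuronal cultures given a modulator of the NMDA receptor or its vehicle. Of the 10 genes named for the family, 8 were found by symbol in the authors' deposited comparison table and joined to the count tables, out of 32623 annotated genes. They were the anti-apoptotic genes Bcl2, Bcl2l1 and Bcl2l2, the pore-forming genes Bax and Bak1, and the BH3-only genes Bcl2l11, Bad and Bid. Mcl1 and Bbc3, the other two genes, are not analysed here. Polyadenylated RNA came from wild type cultures of strain SD on day 18 in vitro, with brain given as the tissue in the labels. Vehicle (n = 4 libraries) was compared with PAM, a positive allosteric modulator, which strengthens the channel's response to glutamate without opening it by itself (n = 4). The sources used here do not name the compound, its dose or the time of exposure, and nothing in the labels says that the libraries came from separate cultures. The p-values therefore measure the spread between these libraries, which may be technical.

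Libraries held 2960406 to 4389430 counts, of which the 8 members took 0.0435% to 0.0545%. Neuron markers were present, with Slc17a7, the vesicular glutamate transporter of excitatory cells, at 1234 ± 83 CPM (the usual depth-normalised count, on TMM-scaled library sizes; mean ± SD, n = 4) in vehicle. Glial markers were present too, with Gfap, the astrocyte filament gene, at 2807 CPM in vehicle, so each level is a mean over neurons and glia. Fewer cells of a type and less RNA per cell cannot be told apart in such bulk samples. Longer genes had relatively fewer counts in PAM 3 and PAM 4: the log2 slope on each doubling of exonic length was -0.0853 and -0.132 there, and 0.00524 to 0.0627 elsewhere.

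Members of the family control whether the outer membrane of mitochondria is opened to release cytochrome c, the step that commits most cells to apoptosis. Bax and Bak1 form the pore, the anti-apoptotic proteins hold them and the BH3-only proteins in check, and BH3-only proteins are the sensors that respond to stress and loss of trophic support. In neurons Bcl2l1 encodes the main survival protein of the mature cell, Bcl2l2 is also expressed in adult brain, and Bcl2l11 is known as a gene induced when survival signals are withdrawn.

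The 3 members that passed the test between PAM and vehicle, described below, were Bcl2l11, Bcl2l2 and Bcl2l1, and the 250 bases before their start sites are shown because these are the stretches of promoter next to transcripts that moved in opposite directions. The sequences are from RefSeq on GRCr8, a different build from the count tables. They are Bcl2l11 at chr3:135819792-135820041 (plus strand), Bcl2l2 at chr15:32326511-32326760 (plus strand) and the most upstream of 4 listed Bcl2l1 windows at chr3:161764776-161765025 (minus strand). Capitals mark matches to any of 5 searched motifs on either strand, and runs may overlap.
Bcl2l11: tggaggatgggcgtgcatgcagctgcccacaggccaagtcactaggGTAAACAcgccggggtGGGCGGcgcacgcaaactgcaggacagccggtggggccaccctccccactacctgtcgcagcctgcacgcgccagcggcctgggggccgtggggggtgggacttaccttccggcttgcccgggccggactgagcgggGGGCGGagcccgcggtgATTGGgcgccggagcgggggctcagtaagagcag
Bcl2l2: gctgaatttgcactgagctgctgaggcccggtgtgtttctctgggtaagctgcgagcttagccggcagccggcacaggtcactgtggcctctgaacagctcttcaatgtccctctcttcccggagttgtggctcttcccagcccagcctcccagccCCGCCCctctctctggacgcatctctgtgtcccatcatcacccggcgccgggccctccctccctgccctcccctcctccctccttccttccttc
Bcl2l1: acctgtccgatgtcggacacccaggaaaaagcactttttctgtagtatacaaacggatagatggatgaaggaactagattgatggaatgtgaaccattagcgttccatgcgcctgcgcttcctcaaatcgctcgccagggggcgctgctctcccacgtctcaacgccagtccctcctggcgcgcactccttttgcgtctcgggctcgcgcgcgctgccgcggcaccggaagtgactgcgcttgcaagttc
The motifs were the forkhead core TGTTTAC, the GC box GGGCGG, the CCAAT box CCAAT, the cyclic AMP response element TGACGTCA and the AP-1 site TGANTCA. The Bcl2l11 window held a forkhead core in the reverse orientation with its first base at -204 from the start site, and GC boxes at -188 and -51. It also held a reversed CCAAT box at -34. The Bcl2l2 window held 1 reversed GC box at -94, and the Bcl2l1 window shown held none of the 5 motifs. Among 33469 windows of the same length in the table, 3.21% held the forkhead core, 30.5% the GC box, 34% the CCAAT box, 1.59% the cyclic AMP response element and 6.34% the AP-1 site. Windows were listed for 7 of the 8 members, 10 in all. Of these, 2 held the forkhead core (Bcl2l11 and Bad), 4 the GC box and 3 the CCAAT box (that of Bcl2l11 and 2 of the 3 Bcl2l1 windows not shown, at -93 and -124). None of the 10 held the cyclic AMP response element or the AP-1 site. A match describes letters and not a bound site. The Bcl2l11 window was 72% G or C, against 64% for Bcl2l2, 57.6% for the Bcl2l1 window shown (41.2% to 60% over its 4 windows), 33.6% for Bcl2 and a median of 51.2% over all windows.

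Both anti-apoptotic genes with enough counts to test fell with PAM, the BH3-only gene Bcl2l11 rose, and the pore-forming genes did not pass the test. Of the 7 members tested, 3 changed, 1 higher and 2 lower (edgeR quasi-likelihood F test over 11740 genes, Benjamini-Hochberg adjusted p under 0.05). The background was 18.9% of all tested genes called, 9% of them higher and 9.89% lower. With 7 genes, the members' share is a description only. The median log2 fold change of the tested members was -0.17, against 0.02 over all tested genes. The absolute log2 fold change had a median of 0.43 over the members and 0.29 over all tested genes. The groups did not overlap for 3 of the 7, Bcl2l1, Bcl2l2 and Bid, each lower with PAM, and 22.3% of all tested genes had groups that did not overlap (10.3% with PAM higher and 12% with PAM lower).

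**Figure D1:**
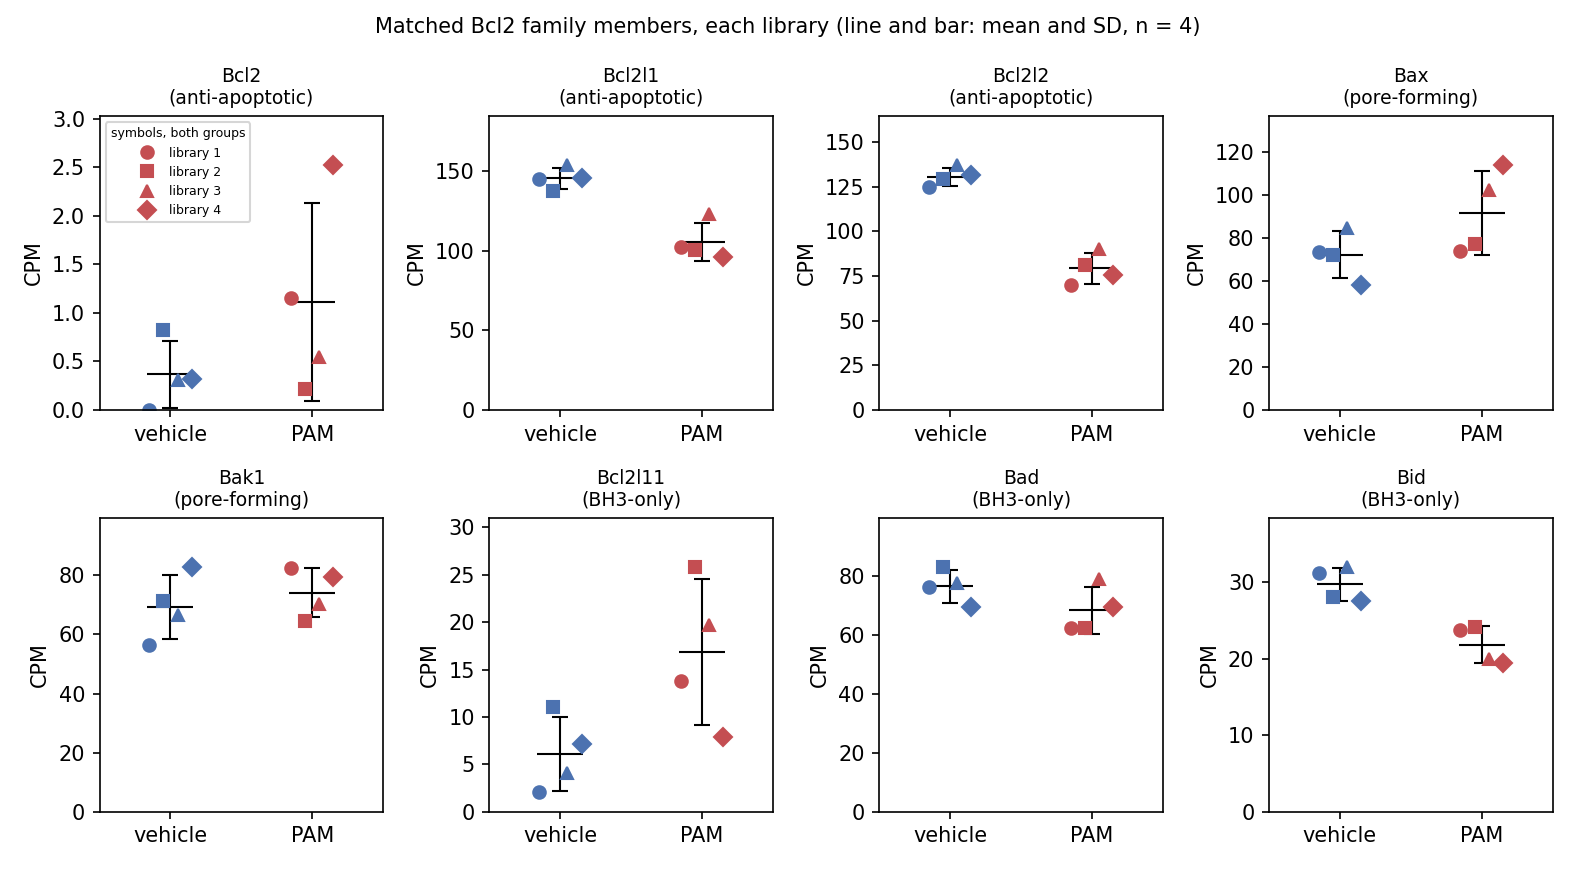
Level of each of the 8 matched members in every library, in CPM on linear axes starting at 0, with vehicle in blue and PAM in red and 1 symbol per library number. The line and bar are the mean and SD of 4 libraries. For Bcl2l1, Bcl2l2 and Bid every PAM library lies below every vehicle library, whereas Bcl2l11 in PAM 4 (7.93 CPM) lies within the vehicle range.

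Bcl2l2, which encodes the survival protein Bcl-w, had the smallest p of the members. It read 125, 129, 137 and 131 CPM in the vehicle libraries 1 to 4, and 69.8, 81.2, 90.4 and 75.7 CPM in PAM 1 to 4. All PAM libraries lay well below the lowest vehicle library. Bcl2l2 (ENSRNOG00000015732; Rnor_6.0 chromosome 15, 33544312 to 33549164, plus strand) fell from 131 ± 5.06 to 79.3 ± 8.72 CPM. The log2 fold change was -0.72 ± 0.11 (SE; edgeR, Benjamini-Hochberg adjusted p = 0.000209), and the authors' deposited table gives -0.72 with an adjusted p of 2.69e-07. Its call held in all 17 alternative fits, with log2 fold changes of -0.79 to -0.66.

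Bcl2l1, which encodes Bcl-xL and a shorter death-promoting splice form that gene counts do not separate, read 145, 138, 154 and 146 CPM in vehicle 1 to 4. In PAM 1 to 4 it read 102, 100.2, 123 and 95.9 CPM. PAM 3 was the highest of the PAM libraries and was still below the lowest vehicle library. Bcl2l1 (ENSRNOG00000007946; Rnor_6.0 chromosome 3, 148259596 to 148313810, minus strand) fell from 145 ± 6.58 to 105 ± 12 CPM. The log2 fold change was -0.47 ± 0.11 (SE; edgeR, Benjamini-Hochberg adjusted p = 0.00636), and its call held in all 17 alternative fits, with adjusted p up to 0.0279. In the authors' deposited table the adjusted p of Bcl2l1 is 0.00148.

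Bcl2, the founding anti-apoptotic gene (ENSRNOG00000002791; Rnor_6.0 chromosome 13, 26605426 to 26769374, minus strand), was close to the limit of detection. Vehicle 1 to 4 held 0, 3, 1 and 1 counts and PAM 1 to 4 held 5, 1, 2 and 7 counts. The groups overlapped, and 3 counts correspond to 0.683 to 1.01 CPM at these depths. Bcl2 did not pass the filter on low counts and was not tested. Its summed counts of 5 in vehicle and 15 in PAM give a ratio of 2.56 with a 95% exact binomial interval of 0.885 to 9.01, which covers counting error only and not the spread between libraries. That interval includes equal levels and does not exclude a large difference. The authors' deposited table gives Bcl2 a log2 fold change of 1.53 (DESeq2, unadjusted p = 0.202).

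Among the pore-forming genes, Bax had 73.5, 72.1, 84.8 and 58.2 CPM in the vehicle libraries, by number, and 73.8, 77, 102 and 114 CPM in the PAM libraries. PAM 1 and PAM 2 lay inside the vehicle range, and PAM 3 and PAM 4 lay above it. Bax (ENSRNOG00000020876; Rnor_6.0 chromosome 1, 101451802 to 101457207, minus strand) had a log2 fold change of 0.34 with a 95% interval of 0.02 to 0.66, unadjusted for the number of genes, and missed the threshold (edgeR, Benjamini-Hochberg adjusted p = 0.137). The difference rested on PAM 3 and PAM 4, the libraries with the length trend. Without both, Bax was at 0.08 (edgeR, Benjamini-Hochberg adjusted p = 0.758), and with the trend removed it was at 0.23 (adjusted p = 0.301). Over all 17 alternatives the adjusted p of Bax ran from 0.0645 to 0.758. At 1277 bases, Bax has the second shortest exonic length of the 8 members, after Bad with 1001 bases.

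Bak1, the other pore-forming gene (ENSRNOG00000000485; Rnor_6.0 chromosome 20, 5609625 to 5618260, minus strand), had 56.4, 71.3, 66.7 and 82.8 CPM in vehicle and 82.5, 64.4, 70.4 and 79.3 CPM in PAM. The groups overlapped almost entirely. The log2 fold change of Bak1 was 0.10 with a 95% interval of -0.19 to 0.39 (edgeR, Benjamini-Hochberg adjusted p = 0.686).

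Bcl2l11, which encodes Bim, a BH3-only protein that can engage all anti-apoptotic members, read 2.13, 11, 4.07 and 7.12 CPM in vehicle 1 to 4. In PAM 1 to 4 it read 13.8, 25.8, 19.7 and 7.93 CPM. These values rest on 7, 40, 13 and 22 counts in vehicle and on 60, 121, 72 and 22 counts in PAM. PAM 1, PAM 2 and PAM 3 lay above every vehicle library, and PAM 4 lay below vehicle 2. Bcl2l11 (ENSRNOG00000016551; Rnor_6.0 chromosome 3, 120726906 to 120764192, plus strand) rose from 6.08 ± 3.87 to 16.8 ± 7.68 CPM. The log2 fold change was 1.47 ± 0.42 (SE; edgeR, Benjamini-Hochberg adjusted p = 0.0195), the largest of the 7 tested members in size and the least precise. The authors' deposited table gives 1.46 with an adjusted p of 0.00655.

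The call of Bcl2l11 depended on single libraries. It ended without vehicle 1 (value 1.19 on the log2 scale, edgeR, Benjamini-Hochberg adjusted p = 0.0574) and without vehicle 3 (1.32, adjusted p = 0.0621). It also ended without PAM 2 (1.18, edgeR, Benjamini-Hochberg adjusted p = 0.0554) and without PAM 3 (1.39, adjusted p = 0.0546). Over 17 alternatives the adjusted p of Bcl2l11 ran from 0.00011 to 0.0621 and the log2 fold change from 1.18 to 1.94, positive in every fit. Without PAM 3 and PAM 4 together Bcl2l11 was at 1.70 (edgeR, Benjamini-Hochberg adjusted p = 0.000572).

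Bid, which links death receptors to mitochondria after it is cut by caspase-8, had 31.1, 28.1, 31.9 and 27.5 CPM in vehicle and 23.7, 24.1, 20 and 19.5 CPM in PAM. All PAM libraries lay below all vehicle libraries. Bid (ENSRNOG00000012439; Rnor_6.0 chromosome 4, 153442218 to 153465203, minus strand) had a log2 fold change of -0.43 with a 95% interval of -0.81 to -0.06, unadjusted for the number of genes. It missed the threshold (edgeR, Benjamini-Hochberg adjusted p = 0.0966), and missed it in all 17 alternatives too (adjusted p 0.0688 to 0.319).

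Bad, whose protein is held inactive by phosphorylation and 14-3-3 proteins when trophic signals are present, had 76.2, 83.1, 77.6 and 69.6 CPM in vehicle and 62.5, 62.5, 79.1 and 69.6 CPM in PAM. PAM 3 and PAM 4 lay inside the vehicle range, and PAM 1 and PAM 2 lay below it. Bad (ENSRNOG00000021147; Rnor_6.0 chromosome 1, 222198534 to 222207453, plus strand) had a log2 fold change of -0.17 with a 95% interval of -0.43 to 0.10 (edgeR, Benjamini-Hochberg adjusted p = 0.391). With the length trend removed it was at -0.31 (edgeR, Benjamini-Hochberg adjusted p = 0.082, the lowest of 17 alternatives that reached up to 0.636), and without PAM 3 and PAM 4 together it was at -0.28.

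**Figure D2:**
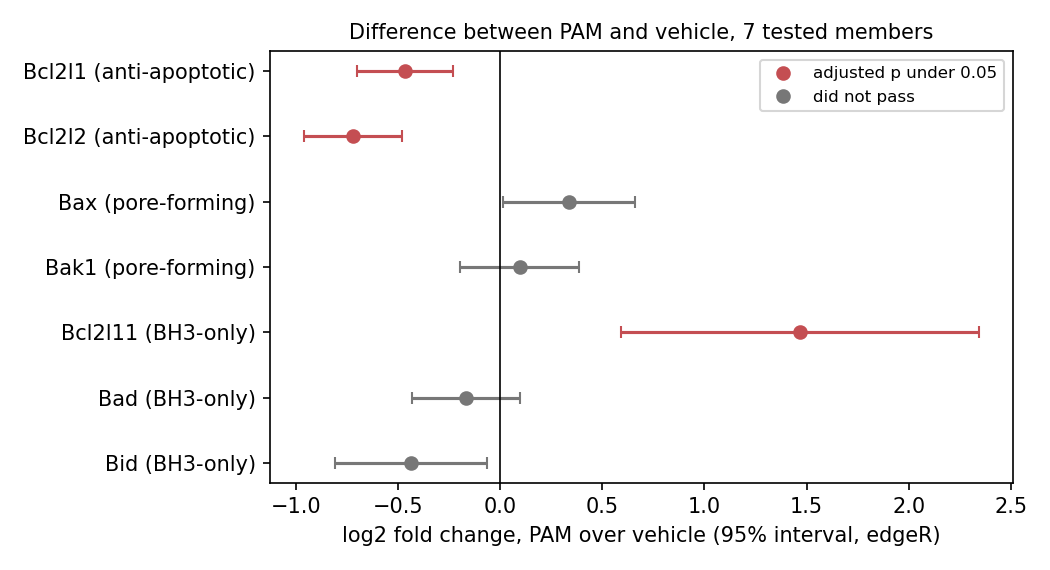
Log2 fold change of PAM over vehicle (horizontal axis) for the 7 tested members, with 95% intervals from edgeR that are not adjusted for the number of genes. Red points passed at a Benjamini-Hochberg adjusted p under 0.05 and grey points did not. Bcl2l1 and Bcl2l2 lie left of 0 and Bcl2l11 lies right of 0 with the widest interval, from 0.59 to 2.34.

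Markers of cell types moved with the group in the same libraries. Genes that rose or fell are counted out of those tested, and sums cover every matched gene of a list. Matched genes outnumbered tested ones in the oligodendrocyte lineage (11 matched), microglia (5 matched) and ependymal and choroid plexus (9 matched) lists. Of 13 neuron markers 8 fell, and their summed level was 5584 to 6445 CPM in vehicle and 4180 to 4841 CPM in PAM. Of 9 astrocyte markers 5 rose, with sums of 6283 to 6600 and 9185 to 11169 CPM. Of 10 oligodendrocyte lineage markers 5 rose and 1 fell, with sums of 958 to 1071 and 1350 to 1759 CPM. All 6 tested ependymal and choroid plexus markers rose, with sums of 47.9 to 66.5 and 176 to 268 CPM. Of 3 microglia markers 0 passed edgeR (1 at an unadjusted p under 0.05, and 0 with DESeq2 or limma-voom), with sums of 27.3 to 59.8 and 24.9 to 32 CPM. In the endothelial and mural list 1 of 2 rose (10.2 to 21.3 and 19.4 to 28.6 CPM), and in the fibroblast and meningeal list 2 of 4 rose (93 to 136 and 125 to 226 CPM). Cell division markers rose in 8 of 10, with sums of 142 to 212 and 286 to 324 CPM. No matched marker was at 0 in all libraries. The part of these shifts in the values of Bcl2l1, Bcl2l2 and Bcl2l11 was not tested.

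Levels can be compared between genes once divided by exonic length. In vehicle Bad was the most abundant member at 76.6 ± 5.58 CPM per kilobase (mean ± SD, n = 4), followed by Bax at 56.5 ± 8.54. Bcl2l2 at 37.1 ± 1.44, Bcl2l1 at 35.3 ± 1.6 and Bak1 at 34.2 ± 5.41 CPM per kilobase came next, and neighbours among these 3 had ranges that overlapped. Bid followed at 14.9 ± 1.1, Bcl2l11 at 1.18 ± 0.753 and Bcl2 at 0.178 ± 0.166 CPM per kilobase, each with a range over libraries apart from that of the gene above it. Bad stood at the 89.5 percentile of tested genes by vehicle level per kilobase, Bcl2l1 at the 77.4 and Bcl2l11 at the 4.51 percentile.

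In PAM the order of these levels per kilobase was Bax at 71.8 ± 15.3, Bad at 68.3 ± 7.88 and Bak1 at 36.6 ± 4.09 CPM per kilobase, then Bcl2l1 at 25.6 ± 2.92 and Bcl2l2 at 22.5 ± 2.48. Bax and Bad overlapped in range, as did Bcl2l1 and Bcl2l2. Bad was above Bax in PAM 1 and PAM 2, and Bax was above Bad in PAM 3 and PAM 4. Longer genes had relatively fewer counts in PAM 3 and PAM 4, and Bax is the longer gene, at 1277 exonic bases against 1001 for Bad. The part of the length trend in this order was not tested. Bak1, which overlapped with Bcl2l1 in vehicle, lay above it in every PAM library. Bid at 11 ± 1.22, Bcl2l11 at 3.27 ± 1.49 and Bcl2 at 0.539 ± 0.496 CPM per kilobase kept the 3 lowest places. Annotated exons that are incomplete would shift such levels, which was not tested.

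The family is often described by the balance of its classes, and here the sums per kilobase are given as a description without a test. The matched anti-apoptotic genes summed to 72.6 ± 2.76 CPM per kilobase in vehicle and 48.6 ± 4.87 in PAM, without overlap. The pore-forming genes summed to 90.7 ± 6.38 and 108 ± 16.4 CPM per kilobase, with overlap. The BH3-only genes summed to 92.6 ± 6.08 and 82.6 ± 7.08 CPM per kilobase, also with overlap, and most of that sum was Bad. Mcl1 is missing from the anti-apoptotic sum and Bbc3 from the BH3-only sum, so these sums cover part of their class. The pore-forming sum holds all of its named members, and ratios to the anti-apoptotic sum leave out Mcl1.

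The ratio of pore-forming to anti-apoptotic transcripts was 1.21, 1.3, 1.3 and 1.19 in the vehicle libraries, by number, and 2.18, 1.94, 2.06 and 2.79 in the PAM libraries. Every PAM library lay above every vehicle library, and PAM 4 was the highest. The mean log2 ratio was 0.32 in vehicle and 1.15 in PAM, a difference of 0.83, and the difference was 0.72 without PAM 3 and PAM 4 together. The ratio of BH3-only to anti-apoptotic transcripts ran from 1.16 to 1.41 in vehicle and from 1.67 to 1.76 in PAM. Its log2 difference of 0.42 came with a lower BH3-only sum in PAM on average, and with a larger relative decrease of the anti-apoptotic sum.

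A ratio of Bax to Bcl2 could not be formed, since Bcl2 had 0 counts in vehicle 1. Bax to Bcl2l1, chosen in its place after the counts were seen, was 1.64, 1.69, 1.78 and 1.29 per kilobase in the vehicle libraries, by number, and 2.33, 2.48, 2.68 and 3.83 in the PAM libraries. The groups were apart, with a log2 difference of 0.81, and of 0.60 without PAM 3 and PAM 4 together.

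**Figure D3:**
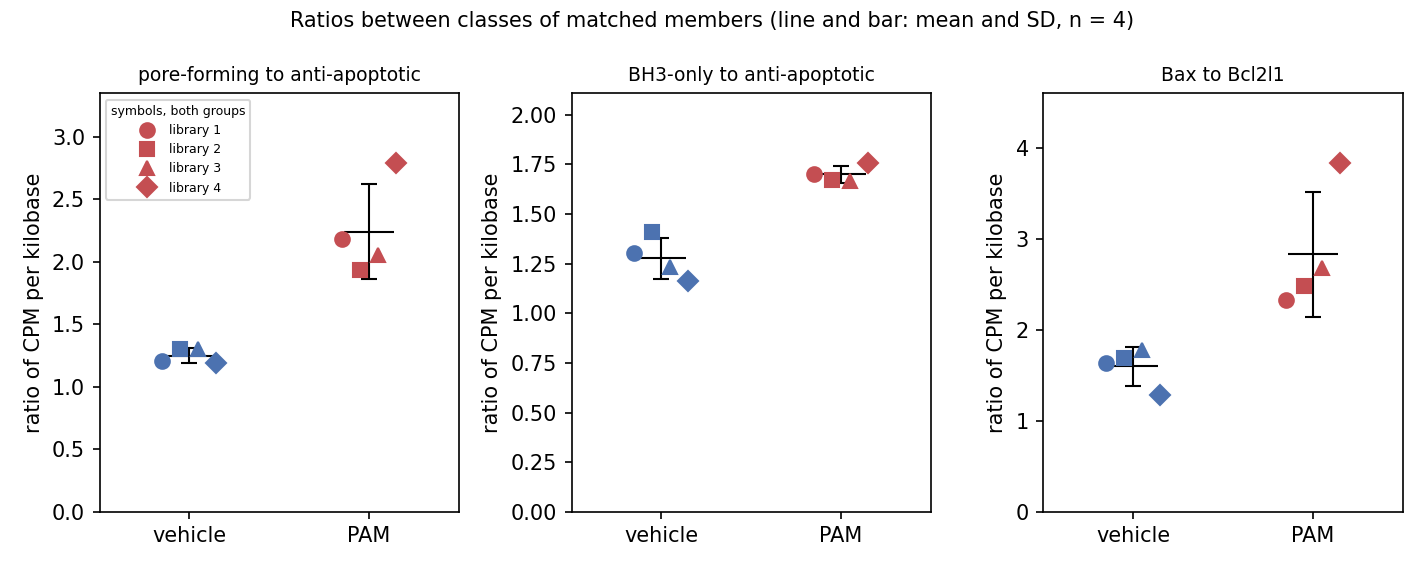
Ratios of summed CPM per kilobase in every library for pore-forming to anti-apoptotic genes, BH3-only to anti-apoptotic genes and Bax to Bcl2l1, on linear axes from 0. Symbols are library numbers, and the line and bar are the mean and SD of 4 libraries. PAM libraries lie above vehicle libraries in all 3 panels, with PAM 4 highest in each. Bcl2l1, which was lower with PAM, is in the denominator of all 3 ratios, so the panels are not separate observations.

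The rest of the mitochondrial death pathway was followed in 9 gene lists with 74 tested genes, of which 8 rose and 8 fell. That is 21.6% called, near the background of 18.9%, with a median log2 fold change of 0.03. Of the other Bcl2 family genes, 2 of 6 tested fell and none rose (0 at an unadjusted p under 0.05 in edgeR, and 0 with DESeq2 or limma-voom). Bnip3, a mitophagy receptor also induced by low oxygen, fell from 364 ± 15.4 to 225 ± 23.3 CPM, and its relative Bnip3l fell from 171 ± 9.94 to 128 ± 17.9 CPM. The call of Bnip3l ended without vehicle 4 and without PAM 1 (edgeR, Benjamini-Hochberg adjusted p 0.00149 to 0.0607 over 8 fits). Pmaip1, which encodes the BH3-only protein Noxa, was at 13.8 ± 2.23 and 14.2 ± 3.31 CPM and Bok at 33 ± 4.83 and 34.2 ± 11.2 CPM, and neither passed.

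Downstream of the pore, 1 of 9 apoptosome and intermembrane space factors passed. Diablo, whose protein relieves caspases of their inhibitors, rose from 63.5 ± 6.78 to 85.9 ± 12 CPM. Its call ended without vehicle 1, 3 or 4 and without PAM 1, 3 or 4 (edgeR, Benjamini-Hochberg adjusted p 0.0098 to 0.0975 over 8 fits). Cycs, the cytochrome c gene, was at 151 ± 7.95 and 161 ± 19.3 CPM with a log2 fold change of 0.10 (95% interval -0.13 to 0.33). Apaf1, the scaffold of the apoptosome, was at 9.65 ± 3.13 and 8.85 ± 3.03 CPM and did not pass.

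Of 5 caspase genes tested, Casp4, an inflammatory caspase, fell from 26.2 ± 1.31 to 14.5 ± 4.98 CPM. None rose (0 at an unadjusted p under 0.05 in edgeR, and 0 with DESeq2 or limma-voom). Casp9, the initiator on the apoptosome, was at 34.5 ± 7.73 and 29.7 ± 7.33 CPM. The 95% interval of its log2 fold change was -0.65 to 0.19.

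Of 4 inhibitors of apoptosis, Birc6 fell from 15.6 ± 2.46 to 7.32 ± 1.55 CPM and Birc5 rose from 7.06 ± 0.751 to 12.9 ± 2.38 CPM. Birc5 encodes survivin, which also acts in mitosis and stood on the list of cell division markers, where most genes rose. The Birc5 call ended without each single library but PAM 1 (edgeR, Benjamini-Hochberg adjusted p 0.0474 to 0.0927 over 8 fits). Xiap, with 1 to 8 counts per library, was not tested.

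Among 7 death receptor and adaptor genes, Tnfrsf1a, a receptor of tumour necrosis factor, rose from 80.8 ± 7.07 to 126 ± 14.8 CPM. Its adaptor Tradd rose from 4.17 ± 1.73 to 8.95 ± 2.32 CPM, a call that ended without vehicle 2, 3 or 4 and without PAM 1 or 3 (edgeR, Benjamini-Hochberg adjusted p 0.0221 to 0.137 over 8 fits). Tnfrsf21, a receptor known from axon pruning, fell from 132 ± 16 to 91.2 ± 8.33 CPM. From a further list of 11 tested genes, Sesn2, a stress-responsive regulator of growth signalling, rose from 359 ± 18 to 510 ± 58.7 CPM.

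At the outer membrane, where the members act, 2 of 9 partner genes rose and 1 fell. Vdac1, the main anion channel, fell from 556 ± 23.7 to 408 ± 21.9 CPM. Tspo, a cholesterol-binding protein often used as a glial marker, rose from 14.1 ± 1.98 to 30.2 ± 6.32 CPM. Fis1, a fission adaptor, rose from 135 ± 8.51 to 190 ± 63.5 CPM with overlapping groups. The Fis1 call ended without any 1 of the vehicle libraries, without PAM 3 and without PAM 4 (edgeR, Benjamini-Hochberg adjusted p 0.00505 to 0.144 over 8 fits), and its log2 fold change went from 0.49 to 0.15 without PAM 3 and PAM 4 together.

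Of 15 regulators of member proteins, Bag3, a co-chaperone that binds Bcl2, had the smallest p. Bag3 rose from 34.3 ± 4.48 to 84.7 ± 6.56 CPM (1.30 ± 0.14 on the log2 scale, SE; edgeR, Benjamini-Hochberg adjusted p = 6.37e-06). The 14-3-3 genes Ywhag and Ywhah, whose proteins sequester phosphorylated Bad, fell from 850 ± 30.7 to 608 ± 47.8 and from 894 ± 85.6 to 683 ± 59.8 CPM. The Ywhah call ended without vehicle 3 or vehicle 4 (edgeR, Benjamini-Hochberg adjusted p 0.00285 to 0.0629 over 8 fits).

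Of 8 transcription factor genes known to drive BH3-only genes, 0 passed edgeR, 3 had an unadjusted p under 0.05, and DESeq2 called 1 and limma-voom 0. Foxo3, a forkhead factor, had 9.92 ± 3.29 CPM in vehicle and 5 ± 1.33 CPM in PAM (edgeR, Benjamini-Hochberg adjusted p = 0.0696). Foxo4, also a forkhead factor, went the other way, with 7.8 ± 0.504 and 10.9 ± 2.24 CPM (edgeR, Benjamini-Hochberg adjusted p = 0.27). Foxo1, at 2.79 ± 2.24 and 1.82 ± 1.56 CPM, was not tested. Jun had 179 ± 7.07 and 215 ± 2.78 CPM (edgeR, Benjamini-Hochberg adjusted p = 0.0638), with every PAM library above every vehicle library.

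**Figure D4:**
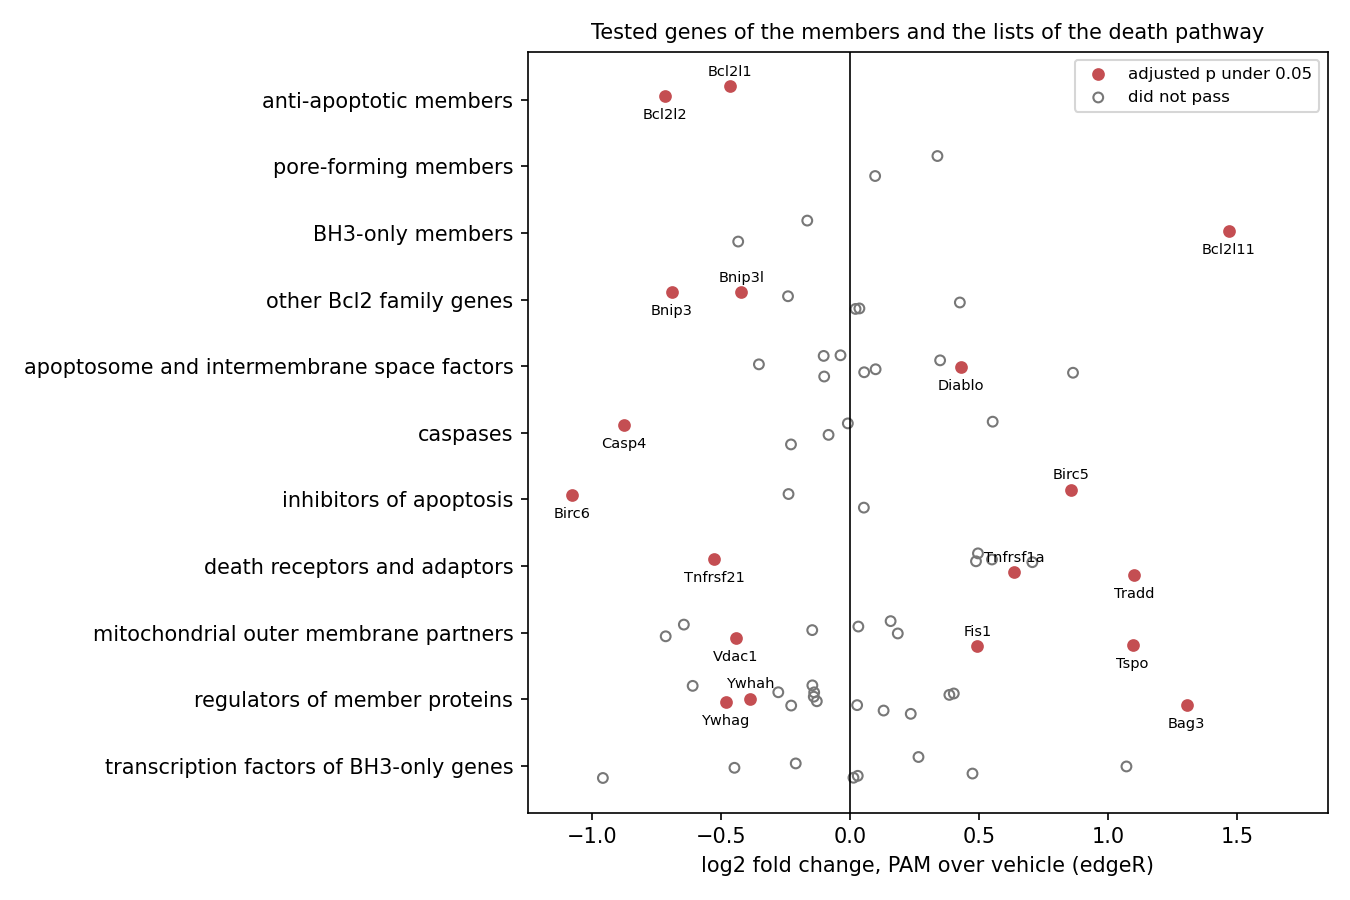
Log2 fold change of PAM over vehicle (horizontal axis) for every tested gene of the 3 member classes and 8 of the 9 pathway lists (vertical axis), with a small vertical scatter to separate points. Filled red points passed edgeR at a Benjamini-Hochberg adjusted p under 0.05 and carry their names, and open grey points did not. Calls lie on both sides of 0, and Bcl2l11 at 1.47 is the rightmost.

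The tested genes with a symbol, a mean of at least 10 CPM and the pattern most like Bcl2l2 over the 8 libraries were Srebf2, Sema6c and Efnb3, out of 8861 candidates. Their Pearson correlations with Bcl2l2 in log2 CPM were 0.993, 0.992 and 0.991, a description over libraries that share the 2 groups and their scaling. Srebf2, a transcription factor of sterol synthesis, had a mean of 263 ± 8.09 CPM with vehicle and of 198 ± 7.63 CPM with PAM. Sema6c, a semaphorin gene, was at 46.5 ± 3.69 and 27 ± 3.26 CPM and Efnb3, an ephrin gene, at 400 ± 21 and 238 ± 21.9 CPM.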

How the data were processed

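The authors deposited, for each library, a featureCounts table of raw counts by Ensembl gene, per the file headers. Per the submitters' processing notes, the tools were STAR, featureCounts, DESeq2 and DESeq, and the build Rnor_6.0. The sources used here give no versions, annotation release or strand setting. The authors also deposited a comparison table, per the file headers, that holds p-values, log2 fold changes and the signal of each group as a mean. No member shares exon bases with another annotated gene.

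The analysis used edgeR 4.0.16 in R 4.3.3, with filterByExpr, TMM scaling, and the robust quasi-likelihood F test with group as the only term. SE is the log2 fold change over the square root of F, and the median SE was 0.20. Alternatives used DESeq2 1.42.0, limma-voom (limma 3.58.1), other scalings and filters, a replicate block, removal of the loess trend with exonic length, and omission of libraries. In counts simulated for PAM against vehicle (11810 genes tested), the test recovered 28.8% of the 66 genes given a 1.5-fold change, 77.6% of the 67 given 2-fold and 100% of the 63 given 4-fold, and 6 of 140 calls were false. Far fewer genes were changed there than the 2218 called in the data, which alters the adjusted threshold, so these rates need not hold for the data. Where a gene had 0 counts, 3 counts was taken as the limit, 0.683 to 1.01 CPM by library (counting error only). No 2 replicates agreed within sampling noise. The chi-square per degree of freedom was 2.85 to 4.23 between vehicle libraries and 4.57 to 15.9 between PAM libraries.

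Some genes of the pathway lists, and 1 list by name, are not reported here. The members and lists were chosen with earlier results of these data known. All members were named. Each pathway list gave up to 4 genes with the smallest p among those called, and every called gene where 5 or fewer were called. Other pathway and promoter motif examples were chosen after values were seen.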

Additional observations from a re-analysis of the deposited data

How the results depend on the processing

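No log2 fold change of a member and no class ratio changed direction in the alternatives run. The medians of 4 pathway lists, near 0, changed sign in some. Caspases were at 0.035 without PAM 3 and PAM 4 together. Transcription factors were at -0.078 without PAM 1, -0.062 without PAM 2, -0.00467 with the replicate block and -0.000306 with the length trend removed. Outer membrane partners were at -0.017 without vehicle 4 and -0.00504 without PAM 2. Apoptosome factors were at -0.011 without PAM 1 and -0.00815 with the length trend removed. Over the 17 alternative fits the calls of Bcl2l1 and Bcl2l2 held, and Bax, Bak1, Bad and Bid stayed short of the threshold. With 1 library left out, the members called higher numbered 0 to 1 and those called lower 2, Bcl2l11 ran from 1.18 to 1.94 in log2 fold change, and the pathway genes called higher ran from 4 to 8. With the length trend removed 5 pathway genes were called higher, against 8. The replicate block also gave 5, and it changed no call of a member. No pairing by library number was seen: deviations of same-numbered libraries correlated at -0.06 to 0.07, and vehicle 1 correlated best with PAM 2. Such correlations cannot exclude a pairing. Of the 16 pathway genes called, 10 kept their call in every alternative and 6 lost it in at least 1. The log2 difference in the ratio of BH3-only to anti-apoptotic genes was 0.51 from raw counts, against 0.42, and 0.37 to 0.46 with 1 library left out. Without length division Bcl2l1 and Bcl2l2 took positions 1 and 2 among vehicle levels, and Bad and Bax 3 and 4. Omission of PAM 3 and PAM 4 for the ratios was added after seeing the data. Depth limits Bcl2, with 0 to 7 counts per library. Most changes of 1.5-fold were not detected in simulation, where far fewer genes were changed than were called in the data, so that rate need not hold here.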

Other observations

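Pairs of members within and across classes were also set side by side per kilobase, chosen after their values were seen and given without a test. Bcl2l1 to Bcl2l2 was 0.911 to 0.99 in vehicle and 1.05 to 1.25 in PAM libraries. Per kilobase, Bcl2l2 was thus above Bcl2l1 in each vehicle library and below it in each PAM library, though their ranges overlapped within each group. This order depends on the division by exonic length, since raw counts of Bcl2l1 exceeded those of Bcl2l2 in every library of both groups. Bax to Bad was 0.656 to 0.857 in vehicle and 0.926 to 1.28 in PAM libraries. Bax to Bak1 overlapped, at 1.12 to 2.07 and 1.42 to 2.3. Bcl2l11 to Bcl2l1 was 0.0118 to 0.0641 in vehicle and 0.0662 to 0.206 in PAM libraries, a ratio that rests on as few as 7 counts of Bcl2l11.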
